A study of Mus musculus with 13 samples.

Results

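The regions analysed here are those to which the authors gave a chondrocyte hypertrophy or mineralisation gene as the nearest gene, in 3 deposited tables of changed 5-hydroxymethylcytosine (5hmC). The genes are 4 transcription factors, Mef2a, Mef2c, Mef2d and Sp7, and 6 genes of mineralisation, Alpl, Ank, Enpp1, Phex, Spp1 and Ibsp. Together they hold 151 of 181833 listed regions, 72 for the transcription factors and 79 for the mineralisation genes. 5hmC, a product of TET enzymes acting on 5-methylcytosine, was read at CCGG sites in DNA of dissected mouse knee cartilage by reduced representation hydroxymethylation profiling. The question set by the series' title is what TET1-made 5hmC does in osteoarthritis.

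The groups used here are mutant mice (MUT, genotype labelled TET-/-) with DMM, wild-type mice (WT, genotype labelled TET1+/+) with DMM, and WT mice with sham surgery. DMM, destabilisation of the medial meniscus, makes the knee unstable and leads to osteoarthritis; per the labels' protocol the medial meniscus was removed, and in sham knees the joint was only opened. All animals were male, of the mixed strain B6;129S4, and were sampled 6 weeks after surgery. The design text puts their age at 3 to 4 months, the labels' protocol at 4 to 6 months. The protocol places each control on the contralateral leg, so a sham knee may come from an animal that also had DMM. The labels do not say in which cells or from what age the allele was lost. The labels list 3 libraries in each group. MUT sham knees and the control without glucosyltransferase are not analysed here, so genotype was not compared in sham knees and no background was subtracted.

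The tables name no library, so values are given in the order in which the authors joined them. A value is a normalized count, and levels can be compared within a table only. In WT DMM against WT sham, the listed regions held 4726, 436852 and 925241 reads in the WT DMM libraries, against 1400953, 563233 and 2187392 in WT sham. The first-listed WT DMM library was therefore nearly empty: a single read of it was worth 15.7 normalized counts, and it stood at 0 in 95.8% of all regions of that table. A pair of MUT DMM entries were identical in every region, were counted as 1 library and are given first below as the deeper one. The authors' adjusted p-values for MUT DMM were deposited with both entries listed. They may therefore not rest on the n = 2 printed beside them below. Where MUT DMM was set against WT DMM, the regions held 5889464 and 407929 reads in MUT DMM, against 52972, 1961515 and 2899132 in WT DMM; where it was set against WT sham, they held 3422008 and 302082 in MUT DMM. A single read of the shallower MUT DMM library was worth 3.55 normalized counts against WT DMM and 9.45 against WT sham. A count of 0 in that library allows up to 3 reads, which is 10.7 and 28.3 normalized counts in those tables.

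Hypertrophic chondrocytes are the last stage of cartilage on its way to bone: they swell, switch on a matrix that can take up mineral, and are normally absent from the articular surface. MEF2 proteins and osterix, the product of Sp7, are transcription factors that drive this programme. Of the mineralisation genes, Alpl, Ank and Enpp1 set the balance between phosphate, which builds crystals, and pyrophosphate, which blocks them. Articular chondrocytes are known to take on parts of this programme in osteoarthritis, and 5hmC is known to gather over the bodies and enhancers of genes in use. No RNA was measured here, so neither the level of these genes nor the markers of cartilage could be checked. In bulk tissue, fewer cells of a type and less 5hmC per cell cannot be told apart.

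All 151 regions were listed because the authors had already called them, with adjusted p-values under 0.05 in the authors' deposited table, as for 99.7%, 98.9% and 99.3% of the regions of the 3 tables. Their direction is thus what the tables add. After DMM in WT knees, 37 of 41 member regions were higher than in sham, 23 of 25 at the transcription factors and 14 of 16 at the mineralisation genes, against 93.2% called higher and 6.53% called lower over that whole table. MUT DMM had 49 of 58 member regions lower than WT DMM, 18 of 23 and 31 of 35, against 64.7% called lower and 34.2% called higher over the table. Set against WT sham, MUT DMM had 38 of 52 lower, 13 of 24 and 25 of 28, against 56.1% called lower and 43.2% called higher. The shares of the members called higher were thus 90.2%, 15.5% and 26.9%. The median log2 fold of the members was 1.10, -0.67 and -1.62 in the 3 tables, against 1.13, -0.63 and -0.96 over all regions. All folds were recomputed as log2 of the group means after adding 1 normalized count.

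**Figure D1:**
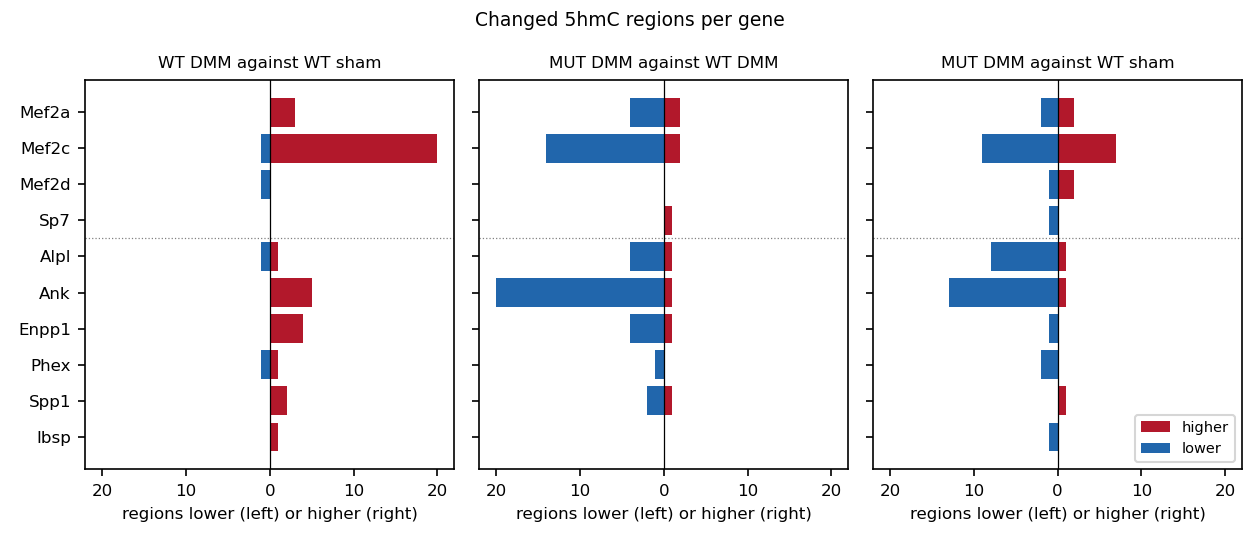
Number of listed regions per gene that were higher (red, to the right) or lower (blue, to the left) in the 3 comparisons, with the transcription factors above the dotted line and the mineralisation genes below it. Mef2c leads the higher regions of WT DMM against WT sham with 20, and Ank the lower regions of MUT DMM against WT DMM with 20.

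Listed regions touched the stretch of 250 bases before a RefSeq gene start at Mef2a, Mef2c, Alpl and Spp1. At Mef2a no CCGG lies in the bases shared with a listed region. Those 4 sequences are shown because listed regions reach into them. They come from RefSeq on GRCm38.p6, which shares its coordinates with mm10, the build of the tables, and run 5′ to 3′ toward the gene, with each CCGG, the site that the enzyme MspI cuts and the only sequence at which the method reads 5hmC, in capitals.
Mef2a: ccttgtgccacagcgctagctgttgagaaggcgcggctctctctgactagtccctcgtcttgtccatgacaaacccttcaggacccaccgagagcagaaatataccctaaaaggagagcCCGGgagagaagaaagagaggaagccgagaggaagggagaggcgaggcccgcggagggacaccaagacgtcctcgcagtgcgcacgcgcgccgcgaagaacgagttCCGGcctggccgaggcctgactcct
Mef2c: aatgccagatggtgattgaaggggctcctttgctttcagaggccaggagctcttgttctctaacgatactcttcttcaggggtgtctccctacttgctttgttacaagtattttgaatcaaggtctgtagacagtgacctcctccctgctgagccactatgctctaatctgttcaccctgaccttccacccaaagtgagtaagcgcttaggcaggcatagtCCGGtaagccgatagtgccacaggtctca
Alpl: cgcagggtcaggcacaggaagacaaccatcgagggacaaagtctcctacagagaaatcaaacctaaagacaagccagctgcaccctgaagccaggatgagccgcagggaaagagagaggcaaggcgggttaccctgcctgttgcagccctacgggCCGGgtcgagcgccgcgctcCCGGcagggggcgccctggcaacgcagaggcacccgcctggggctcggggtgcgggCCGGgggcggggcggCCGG
Spp1: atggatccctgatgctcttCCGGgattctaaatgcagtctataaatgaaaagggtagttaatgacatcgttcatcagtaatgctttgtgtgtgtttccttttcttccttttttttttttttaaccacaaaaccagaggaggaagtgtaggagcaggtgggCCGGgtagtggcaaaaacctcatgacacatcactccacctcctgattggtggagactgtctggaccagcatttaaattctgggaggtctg
The Mef2a stretch is chr7:67372859-67373108 on the minus strand, with CCGG 131 and 25 bases before the start. That of Mef2c is chr13:83573357-83573606 on the plus strand, before a start inside the gene's outer bounds, with CCGG 29 bases before it. The Alpl stretch is chr4:137796385-137796634 on the minus strand, with CCGG 95, 75, 19 and 4 bases before the start. The Spp1 stretch is chr5:104434861-104435110 on the plus strand, with CCGG 231 and 90 bases before the start. CCGG reads the same on both strands, and 47.1% of all such stretches in the table hold it. Promoter sequences were found for 9 of the 10 genes. The other listed regions lie away from these stretches, and no sequence is shown for them.

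Mef2a, a MEF2 factor expressed in muscle and many other tissues, lies on chromosome 7 (67231163 to 67376456). It had 3 regions in WT DMM against WT sham, all of them higher and all inside the gene. At chr7:67274161-67274540 the libraries held 0, 40.02 and 32.3 normalized counts in WT DMM, against 12.5, 14.3 and 11.3 in WT sham. Both deeper WT DMM libraries were above every sham library, while the near-empty one was at 0; the means were 24.1 ± 21.2 in WT DMM (SD, n = 3) and 12.7 ± 1.53 in WT sham (SD, n = 3), with a recomputed log2 fold of 0.87 and, in the authors' deposited table, an adjusted p of 0.000264. At chr7:67283221-67283440 the values were 0, 2.67 and 12.5 normalized counts in WT DMM, against 1.6, 2.86 and 1.2 in WT sham, and at chr7:67375681-67375980 they were 0, 6.67 and 15.6 normalized counts in WT DMM, against 3.84, 3.58 and 1.71 in WT sham. In the first of these the second-listed WT DMM library lay within the sham range, and with the third-listed library left out the WT DMM mean was below that of sham; in the other, both deeper WT DMM libraries were above sham.

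Against WT DMM, Mef2a had 6 regions in MUT DMM, 4 of them lower. The most heavily read lower one was chr7:67355801-67356200, inside the gene, with 33.2 and 42.7 normalized counts in MUT DMM, against 38.2, 67.7 and 66.97 in WT DMM. The MUT DMM libraries were below the 2 deeper WT DMM libraries, and the deeper of them was also below the near-empty one; the means were 37.9 ± 6.67 in MUT DMM (SD, n = 2) and 57.6 ± 16.8 in WT DMM (SD, n = 3), with a recomputed log2 fold of -0.59 and, in the authors' deposited table, an adjusted p of 2.64e-05. The lower region farthest upstream, at chr7:67429501-67429880, 53 kb upstream, held 0.94 and 0 normalized counts in MUT DMM, against 19.1, 2.26 and 6.09 in WT DMM. The groups did not overlap there, but the shallower MUT DMM library was at 0 and the near-empty WT DMM value of 19.1 is 2 reads. The other lower regions were chr7:67247421-67247680, inside the gene, with 0.70 and 3.55 normalized counts in MUT DMM, against 0, 4.51 and 6.09 in WT DMM, and chr7:67390161-67390420, 13.7 kb upstream, with 0.70 and 3.55 normalized counts in MUT DMM, against 0, 1.5 and 9.13 in WT DMM. In each of these the shallower MUT DMM library had 1 read, and the direction turned without the deeper MUT DMM library.

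The 2 regions that were higher in MUT DMM than in WT DMM kept their direction without the near-empty library, which had no read at either. At chr7:67373101-67373460 the values were 61.1 and 56.9 normalized counts in MUT DMM, against 0, 64.7 and 33.5 in WT DMM, and at chr7:67394421-67394780, 18 kb upstream, they were 29.3 and 21.3 normalized counts in MUT DMM, against 0, 25.6 and 20.7 in WT DMM. At the first of these both MUT DMM values were between the 2 deeper WT DMM values, at the second 1 of them was, and the groups overlapped at both. The first is the region that reaches 8 bases into the Mef2a stretch printed above, and no CCGG lies in the shared bases.

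Against WT sham, Mef2a had 4 regions, all inside the gene and all without overlap between groups. chr7:67274141-67274600 was higher in MUT DMM, with 36.1 and 94.5 normalized counts in MUT DMM, against 20.7, 23.2 and 18.3 in WT sham. It covers the whole region that was also higher in WT DMM. Both MUT DMM libraries and both deeper WT DMM libraries stood above the same sham libraries, while the near-empty WT DMM library was at 0. The means at chr7:67274141-67274600 were 65.3 ± 41.3 in MUT DMM (SD, n = 2) and 20.7 ± 2.42 in WT sham (SD, n = 3). The recomputed log2 fold was 1.61 and, in the authors' deposited table, the adjusted p was 0.000912. The region chr7:67373001-67373200 shares 108 bases with the printed stretch, and no CCGG lies in the shared bases. Its values were 51.5 and 94.5 normalized counts in MUT DMM, against 45.6, 48.6 and 36.3 in WT sham. The gap between the deeper MUT DMM library and the highest sham library was small there, and limma, a moderated test on log2 values fitted over all regions of the table, gave an adjusted p of 0.173. The lower regions were chr7:67246661-67246940, with 0.74 and 0 normalized counts in MUT DMM, against 8.48, 9.26 and 6.38 in WT sham, and chr7:67305701-67305980, with 0.74 and 0 normalized counts in MUT DMM, against 8.48, 6.95 and 7.21 in WT sham. The MUT DMM libraries had 1 and 0 reads at both, and limma's adjusted p was 0.00499 and 0.00483.

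Mef2c, the MEF2 factor best known for driving chondrocyte hypertrophy in mouse growth plates, held the most regions of any member, 21, 16 and 16 in the 3 tables. Its RefSeq bounds are 83504017 to 83667079 on chromosome 13, and most of its regions, 15, 13 and 13, lie upstream, up to 719 kb away. After DMM in WT knees 20 of the 21 regions were higher, spread over the gene and the stretch before it. The smallest adjusted p, in the authors' deposited table, belonged to chr13:83591981-83592260, inside the gene, with 0, 10.7 and 12.5 normalized counts in WT DMM, against 1.6, 2.86 and 1.54 in WT sham. Both deeper WT DMM libraries were above every sham library, and the means were 7.72 ± 6.75 in WT DMM (SD, n = 3) and 2.0 ± 0.745 in WT sham (SD, n = 3), with a recomputed log2 fold of 1.54 and, in the authors' deposited table, an adjusted p of 0.000266.

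The other higher Mef2c regions inside the gene had the same shape at low counts. chr13:83624641-83624900 held 0, 9.34 and 13.5 normalized counts in WT DMM, against 2.88, 2.15 and 1.88 in WT sham, and chr13:83535121-83535380 held 0, 9.34 and 10.4 normalized counts in WT DMM, against 3.52, 3.58 and 1.54 in WT sham. In both of these the 2 deeper WT DMM libraries were close to each other and above sham. chr13:83526161-83526360 held 0, 4.0 and 14.6 normalized counts in WT DMM, against 2.88, 3.58 and 1.37 in WT sham, chr13:83543781-83543980 held 0, 2.67 and 13.5 normalized counts in WT DMM, against 2.56, 2.15 and 1.2 in WT sham and chr13:83573541-83573780 held 0, 4.0 and 13.5 normalized counts in WT DMM, against 1.92, 3.58 and 1.2 in WT sham. In these the third-listed WT DMM library carried the difference: the second-listed one, of 2 or 3 reads, was just above the sham libraries, and with the third-listed library left out the WT DMM mean was below that of sham. The last of them shares 66 bases, with the CCGG 29 bases before the start, with the Mef2c stretch printed above.

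Upstream of Mef2c, the regions whose direction held without any single library were these. chr13:82890661-82890980, 613 kb upstream, held 0, 10.7 and 20.8 normalized counts in WT DMM, against 2.56, 5.01 and 2.22 in WT sham. chr13:83125681-83125880, 378 kb upstream, held 0, 5.34 and 14.6 normalized counts in WT DMM, against 2.24, 2.86 and 1.2 in WT sham. chr13:83180741-83181080, 323 kb upstream, held 0, 10.7 and 14.6 normalized counts in WT DMM, against 4.48, 4.29 and 2.73 in WT sham. At each of them both deeper WT DMM libraries were above every sham library and the near-empty one was at 0. chr13:83195381-83195680, 308 kb upstream, held 0, 8.0 and 16.7 normalized counts in WT DMM, against 2.56, 2.86 and 2.22 in WT sham. chr13:83225481-83225740, 278 kb upstream, held 0, 6.67 and 13.5 normalized counts in WT DMM, against 3.2, 4.29 and 1.88 in WT sham. chr13:83231381-83231740, 272 kb upstream, held 0, 10.7 and 19.8 normalized counts in WT DMM, against 3.2, 4.29 and 3.08 in WT sham. The WT DMM values were again 2 low counts and a 0, from 5 to 8 reads in the second-listed library, and they were above sham in both deeper libraries.

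In the remaining upstream regions the direction turned once the third-listed WT DMM library was left out. chr13:82847301-82847540, 657 kb upstream, held 0, 2.67 and 16.7 normalized counts in WT DMM, against 2.88, 2.86 and 1.71 in WT sham. chr13:83076981-83077180, 427 kb upstream, held 0, 22.7 and 41.7 normalized counts in WT DMM, against 13.1, 15.7 and 12.8 in WT sham. chr13:83232081-83232360, 272 kb upstream, held 0, 8.0 and 27.1 normalized counts in WT DMM, against 6.73, 5.72 and 3.42 in WT sham. The second-listed library was above sham in the last pair and within the sham range in the first of the 3. chr13:83289201-83289400, 215 kb upstream, held 0, 5.34 and 15.6 normalized counts in WT DMM, against 3.84, 4.29 and 1.71 in WT sham. chr13:83323861-83324080, 179.9 kb upstream, held 0, 6.67 and 20.8 normalized counts in WT DMM, against 3.52, 5.72 and 1.54 in WT sham. chr13:83335881-83336120, 168 kb upstream, held 0, 2.67 and 19.8 normalized counts in WT DMM, against 3.2, 2.86 and 2.39 in WT sham. Here too the third-listed library was several times the highest sham value, and at the last region the second-listed one was below 2 of the 3 sham libraries. chr13:83421981-83422180, 81.8 kb upstream, held 0, 4.0 and 15.6 normalized counts in WT DMM, against 3.52, 3.58 and 1.54 in WT sham. chr13:83294701-83295080, 209 kb upstream, held 15.7, 20.01 and 79.1 normalized counts in WT DMM, against 28.8, 22.9 and 21.2 in WT sham. The region at 83294701 was the only higher member region with a read in the near-empty library, and its third-listed value stood alone above all other libraries.

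The exception was chr13:83186961-83187180, 317 kb upstream, which was lower in WT DMM, with 0, 44.02 and 63.5 normalized counts in WT DMM, against 57.7, 60.8 and 62.6 in WT sham. Apart from the near-empty library at 0, the WT DMM values were just above and well below the sham values, so the groups overlapped; the means were 35.8 ± 32.5 in WT DMM (SD, n = 3) and 60.3 ± 2.48 in WT sham (SD, n = 3), with a recomputed log2 fold of -0.74 and, in the authors' deposited table, an adjusted p of 0.00314.

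**Figure D2:**
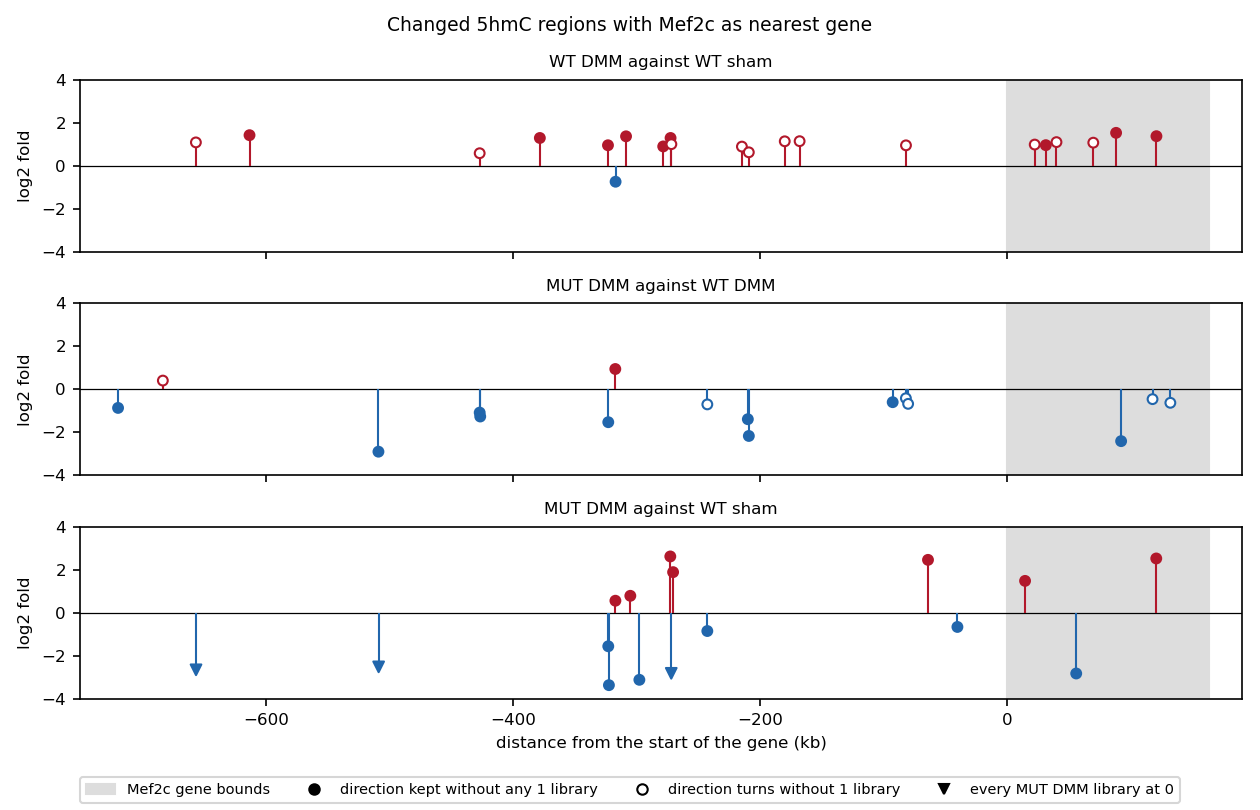
Log2 fold of each region with Mef2c as nearest gene against the distance of its centre from the gene's start in kb, in the 3 comparisons, with the gene in grey. Red is higher and blue is lower; open points changed direction when 1 library was left out, and triangles mark regions at which every MUT DMM library was at 0, where the fold depends on the added count. In WT DMM against WT sham 20 of 21 points lie above 0, and in MUT DMM against WT DMM 14 of 16 lie below.

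Against WT DMM, 14 of the 16 Mef2c regions were lower in MUT DMM. The smallest adjusted p was at chr13:83180961-83181340, 323 kb upstream, with 3.98 and 7.11 normalized counts in MUT DMM, against 0, 23.3 and 30.4 in WT DMM. Both MUT DMM libraries were below both deeper WT DMM libraries and above the near-empty one at 0; the means were 5.55 ± 2.21 in MUT DMM (SD, n = 2) and 17.9 ± 15.9 in WT DMM (SD, n = 3), with a recomputed log2 fold of -1.53 and, in the authors' deposited table, an adjusted p of 1.4e-05. A pair of neighbouring regions had the same pattern: chr13:83076901-83077280, 427 kb upstream, held 3.51 and 7.11 normalized counts in MUT DMM, against 0, 12.8 and 24.4 in WT DMM, and chr13:83077361-83077700, 426 kb upstream, held 7.02 and 7.11 normalized counts in MUT DMM, against 0, 15.04 and 40.2 in WT DMM. Of another pair, chr13:83293921-83294280, 209.7 kb upstream, held 4.68 and 3.55 normalized counts in MUT DMM, against 0, 13.5 and 23.7 in WT DMM, and chr13:83294761-83295060, 209 kb upstream, held 8.19 and 0 normalized counts in MUT DMM, against 9.56, 11.3 and 45.1 in WT DMM. At the last of these the groups did not overlap, since the shallower MUT DMM library was at 0 and the near-empty WT DMM library had a read.

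Lower counts were read at the other upstream regions. chr13:82784261-82784600, 719 kb upstream, held 0.47 and 3.55 normalized counts in MUT DMM, against 0, 6.77 and 6.7 in WT DMM. chr13:82994961-82995340, 509 kb upstream, held 0.94 and 0 normalized counts in MUT DMM, against 19.1, 6.02 and 4.87 in WT DMM. chr13:83411181-83411460, 92.6 kb upstream, held 0.70 and 3.55 normalized counts in MUT DMM, against 0, 4.51 and 6.7 in WT DMM. The MUT DMM values were below both deeper WT DMM libraries in all 3, and only the middle one, where the near-empty library had 2 reads, had no overlap. chr13:83261181-83261460, 243 kb upstream, held 1.4 and 3.55 normalized counts in MUT DMM, against 0, 3.01 and 10.96 in WT DMM. chr13:83421901-83422120, 81.9 kb upstream, held 4.68 and 10.7 normalized counts in MUT DMM, against 0, 6.77 and 24.96 in WT DMM. chr13:83423681-83423960, 80.1 kb upstream, held 7.49 and 10.7 normalized counts in MUT DMM, against 0, 14.3 and 31.1 in WT DMM. At these 3 the direction turned without the third-listed WT DMM library, and in the first and second the shallower MUT DMM value was above the second-listed WT DMM value.

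Inside Mef2c there were 3 lower regions. chr13:83596081-83596300 held 1.87 and 0 normalized counts in MUT DMM, against 19.1, 1.5 and 7.31 in WT DMM, chr13:83621481-83621760 held 0.47 and 3.55 normalized counts in MUT DMM, against 0, 1.5 and 7.91 in WT DMM and chr13:83635881-83636200 held 2.57 and 7.11 normalized counts in MUT DMM, against 0, 8.27 and 15.8 in WT DMM. The groups overlapped at all of them, and at the second and the third the direction turned without the third-listed WT DMM library. Mef2c's higher regions were upstream. chr13:83186701-83186980, 317 kb upstream, held 114 and 124 normalized counts in MUT DMM, against 19.1, 99.3 and 65.8 in WT DMM. The MUT DMM libraries were above every WT DMM library there, with means of 119 ± 7.56 in MUT DMM (SD, n = 2) and 61.4 ± 40.3 in WT DMM (SD, n = 3), with a recomputed log2 fold of 0.94 and, in the authors' deposited table, an adjusted p of 0.000418. chr13:82820541-82820820, 683 kb upstream, held 93.4 and 85.3 normalized counts in MUT DMM, against 19.1, 94.8 and 87.7 in WT DMM. Here the groups overlapped, and the direction turned without the near-empty library, whose 19.1 is 2 reads.

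Against WT sham the Mef2c regions were split, 7 higher and 9 lower in MUT DMM. The member region of highest level in this table was chr13:83186701-83187140, 317 kb upstream, which was higher, with 479 and 482 normalized counts in MUT DMM, against 304, 337 and 339 in WT sham. The 5 values did not overlap, the means were 480.2 ± 2.24 in MUT DMM (SD, n = 2) and 326 ± 19.6 in WT sham (SD, n = 3), with a recomputed log2 fold of 0.56 and, in the authors' deposited table, an adjusted p of 6.75e-05, and limma's adjusted p was 0.14. chr13:83198901-83199100, 305 kb upstream, held 69.95 and 94.5 normalized counts in MUT DMM, against 50.9, 47.5 and 43.6 in WT sham, and chr13:83518341-83518560, inside the gene, held 17.7 and 56.7 normalized counts in MUT DMM, against 10.6, 13.9 and 13.6 in WT sham. At these as well both MUT DMM libraries were above every sham library, with limma's adjusted p at 0.0923 and 0.109.

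The other higher regions were thinly read. chr13:83439781-83440020, 64 kb upstream, held 3.68 and 18.9 normalized counts in MUT DMM, against 0, 2.32 and 1.39 in WT sham. chr13:83231201-83231500, 273 kb upstream, held 2.21 and 18.9 normalized counts in MUT DMM, against 2.65, 0 and 0 in WT sham. chr13:83233461-83233760, 270.3 kb upstream, held 5.15 and 18.9 normalized counts in MUT DMM, against 5.3, 1.16 and 1.11 in WT sham. The shallower MUT DMM library had 2 reads at each, and the deeper one was below or close to the first-listed sham library at the last pair. chr13:83624521-83624740, inside the gene, held 2.21 and 28.3 normalized counts in MUT DMM, against 2.12, 1.16 and 2.22 in WT sham. Its shallower MUT DMM value is 3 reads, and the deeper value was within the sham range.

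Lower in MUT DMM were chr13:82847381-82847660, 656 kb upstream, with 0 and 0 normalized counts in MUT DMM, against 6.89, 4.63 and 4.44 in WT sham, chr13:82995201-82995420, 509 kb upstream, with 0 and 0 normalized counts in MUT DMM, against 3.18, 5.79 and 5.27 in WT sham, and chr13:83231981-83232260, 272 kb upstream, with 0 and 0 normalized counts in MUT DMM, against 6.89, 5.79 and 5.55 in WT sham. No read was seen in either MUT DMM library at these, and limma's adjusted p was 0.00472, 0.00499 and 0.00472. A 0 allows up to 2.21 normalized counts in the deeper library and 28.3 in the shallower, so only the deeper library could show a loss. chr13:83559661-83560040, inside the gene, held 1.47 and 0 normalized counts in MUT DMM, against 9.54, 9.26 and 15.3 in WT sham. chr13:83206181-83206460, 298 kb upstream, held 2.95 and 0 normalized counts in MUT DMM, against 41.9, 12.7 and 7.21 in WT sham. Neither of these had overlap between groups, limma's adjusted p was 0.00916 and 0.0489, and the first-listed sham library stood far above the other two at the upstream one.

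chr13:83180961-83181340, 323 kb upstream, has the same bounds as the region of smallest adjusted p against WT DMM and held 12.5 and 18.9 normalized counts in MUT DMM, against 10.6, 55.6 and 79.1 in WT sham. The second-listed and the third-listed sham libraries were far above MUT DMM, but the first-listed was below it, and limma's adjusted p was 0.269. chr13:83181481-83181860, 322 kb upstream, held 4.42 and 0 normalized counts in MUT DMM, against 5.3, 34.7 and 56.9 in WT sham, with limma's adjusted p at 0.0765. chr13:83261201-83261420, 243 kb upstream, held 2.95 and 9.45 normalized counts in MUT DMM, against 11.1, 12.7 and 12.2 in WT sham. chr13:83463581-83463840, 40.2 kb upstream, held 2.21 and 9.45 normalized counts in MUT DMM, against 11.1, 8.1 and 10.3 in WT sham. At the last pair the shallower MUT DMM library had 1 read, and at the last region it was within the sham range.

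Mef2d, the third MEF2 factor, lies on chromosome 3 (88141941 to 88172091) and had 1 region in WT DMM against WT sham and 3 in MUT DMM against WT sham. At chr3:88142401-88142680, inside the gene, the values were 31.4, 18.7 and 12.5 normalized counts in WT DMM, against 26.9, 37.2 and 59.1 in WT sham. The groups overlapped only through the near-empty library, which had 2 reads, and the means were 20.8 ± 9.61 in WT DMM (SD, n = 3) and 41.1 ± 16.5 in WT sham (SD, n = 3), with a recomputed log2 fold of -0.95 and, in the authors' deposited table, an adjusted p of 0.00422. The log2 fold was 0.59, of the opposite sign, when values were scaled by each library's total reads in the listed regions, so no direction is drawn from it. Against WT sham, chr3:88135421-88135800, 6.1 kb upstream, held 49.3 and 94.5 normalized counts in MUT DMM, against 33.4, 32.4 and 27.5 in WT sham. chr3:88138681-88138900, 3.0 kb upstream, held 67.01 and 113 normalized counts in MUT DMM, against 35, 52.1 and 39.7 in WT sham. Both MUT DMM libraries were above every sham library at these higher regions, with limma's adjusted p at 0.0693 and 0.0777. chr3:88149421-88149700, inside the gene, was lower, with 1.47 and 0 normalized counts in MUT DMM, against 7.42, 10.4 and 9.15 in WT sham, and limma's adjusted p was 0.0105.

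Sp7, which encodes osterix, the factor that osteoblasts cannot form without, lies on chromosome 15 (102356603 to 102367035) and had 1 region in each comparison with MUT DMM. At chr15:102362941-102363140, inside the gene, MUT DMM was higher, with 26.4 and 21.3 normalized counts in MUT DMM, against 0, 19.6 and 10.4 in WT DMM. The groups did not overlap, but 1 of the WT DMM values was the near-empty library's 0, and limma's adjusted p was 0.729. At chr15:102357501-102357840, also inside the gene, MUT DMM was lower, with 1.47 and 0 normalized counts in MUT DMM, against 9.54, 22 and 10.5 in WT sham. The MUT DMM libraries had 2 and 0 reads, the means were 0.735 ± 1.04 in MUT DMM (SD, n = 2) and 14.03 ± 6.92 in WT sham (SD, n = 3), with a recomputed log2 fold of -3.11 and, in the authors' deposited table, an adjusted p of 0.00069, and limma's adjusted p was 0.0111. The regions do not touch each other, so Sp7 was higher at one place in one comparison and lower at another in the other.

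Alpl encodes tissue-nonspecific alkaline phosphatase, which breaks down pyrophosphate and so allows mineral to form. Its bounds are 137741731 to 137796384 on chromosome 4. It had 2 regions in WT DMM against WT sham. chr4:137767601-137767800, inside the gene, held 0, 6.67 and 12.5 normalized counts in WT DMM, against 2.24, 2.15 and 2.05 in WT sham. Both deeper WT DMM libraries were above sham. chr4:137800501-137800820, 4.1 kb upstream, was called lower and held 0, 136 and 99.96 normalized counts in WT DMM, against 134, 123.04 and 129 in WT sham. The deeper WT DMM libraries were above and below the narrow sham range; the means were 78.7 ± 70.5 in WT DMM (SD, n = 3) and 129 ± 5.59 in WT sham (SD, n = 3), with a recomputed log2 fold of -0.70 and, in the authors' deposited table, an adjusted p of 0.00337. Without the near-empty library at 0 the WT DMM mean was 118, still below sham.

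Of the 5 Alpl regions in MUT DMM against WT DMM, 4 were lower. chr4:137773761-137774060 held 3.74 and 3.55 normalized counts in MUT DMM, against 0, 12.03 and 16.4 in WT DMM, chr4:137750981-137751260 held 0.94 and 3.55 normalized counts in MUT DMM, against 0, 4.51 and 7.31 in WT DMM and chr4:137751321-137751560 held 0.70 and 3.55 normalized counts in MUT DMM, against 0, 4.51 and 5.48 in WT DMM. All 3 lie inside the gene, and both MUT DMM libraries were below both deeper WT DMM libraries and above the near-empty one at 0. Without the deeper MUT DMM library the direction turned at the last of them. chr4:137811401-137811660, 15 kb upstream, had the smallest adjusted p and held 0.47 and 3.55 normalized counts in MUT DMM, against 0, 3.01 and 9.74 in WT DMM. It depended on the third-listed WT DMM library, without which the log2 fold was 0.27, above 0. The higher region, chr4:137796141-137796400, held 40.2 and 35.5 normalized counts in MUT DMM, against 38.2, 27.8 and 21.3 in WT DMM. It reaches 16 bases into the Alpl stretch printed above, bases that hold the CCGG 4 bases before the start; the near-empty library's 38.2, which is 4 reads, lay between the MUT DMM values, and both other WT DMM libraries were lower.

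Compared with WT sham, MUT DMM had 8 of 9 Alpl regions lower, and the groups did not overlap at any of the 9. The smallest adjusted p was at chr4:137773301-137773580, with 0 and 0 normalized counts in MUT DMM, against 5.83, 17.4 and 16.6 in WT sham. Neither MUT DMM library had a read, and limma's adjusted p was 0.00538. chr4:137764181-137764560 held 0.74 and 0 normalized counts in MUT DMM, against 23.9, 11.6 and 7.21 in WT sham, and chr4:137784061-137784340 held 0 and 0 normalized counts in MUT DMM, against 7.42, 3.47 and 9.43 in WT sham. Sham counts were low at both, of 3 to 45 reads in the first-listed and second-listed libraries, and limma's adjusted p was 0.00905 and 0.00686.

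At other places in Alpl the sham levels were higher. chr4:137770861-137771100 held 39.8 and 37.8 normalized counts in MUT DMM, against 93.3, 91.5 and 46.9 in WT sham, with means of 38.8 ± 1.39 in MUT DMM (SD, n = 2) and 77.2 ± 26.3 in WT sham (SD, n = 3), with a recomputed log2 fold of -0.98 and, in the authors' deposited table, an adjusted p of 0.00112. chr4:137770461-137770760 held 25.04 and 9.45 normalized counts in MUT DMM, against 47.2, 54.4 and 44.7 in WT sham, and chr4:137751661-137751860 held 34.6 and 0 normalized counts in MUT DMM, against 49.3, 43.99 and 46.3 in WT sham. The deeper MUT DMM library was below every sham library at all 3, and limma's adjusted p was 0.122, 0.0464 and 0.139. Upstream, chr4:137807161-137807400, 10.8 kb upstream, held 2.21 and 0 normalized counts in MUT DMM, against 8.48, 11.6 and 9.15 in WT sham, and its neighbour chr4:137807461-137807680, 11.1 kb upstream, held 2.21 and 0 normalized counts in MUT DMM, against 7.42, 9.26 and 10.3 in WT sham. Every sham library was above both MUT DMM libraries, with limma's adjusted p at 0.0198 and 0.0225. The only higher region, chr4:137792101-137792440, inside the gene, held 78.1 and 56.7 normalized counts in MUT DMM, against 56.2, 54.4 and 48.3 in WT sham. The shallower MUT DMM value, of 6 reads, was just above the highest sham value, and limma's adjusted p was 0.359.

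Ank encodes a membrane protein that moves ATP and pyrophosphate out of the cell, and loss of it in mice leads to mineral in the joints. Its bounds are 27466677 to 27594909 on chromosome 15. After DMM in WT knees all 5 regions were higher than in sham. chr15:27381081-27381360, 85.3 kb upstream, held 0, 6.67 and 16.7 normalized counts in WT DMM, against 1.92, 3.58 and 2.05 in WT sham. The 2 deeper WT DMM libraries were above sham, with means of 7.78 ± 8.39 in WT DMM (SD, n = 3) and 2.52 ± 0.923 in WT sham (SD, n = 3), with a recomputed log2 fold of 1.32 and, in the authors' deposited table, an adjusted p of 0.000521. chr15:27402861-27403120, 63.6 kb upstream, held 0, 8.0 and 15.6 normalized counts in WT DMM, against 2.24, 3.58 and 2.91 in WT sham, and chr15:27559941-27560180, inside the gene, held 0, 8.0 and 9.37 normalized counts in WT DMM, against 2.56, 3.58 and 2.05 in WT sham. In both, the deeper WT DMM libraries were above every sham library. chr15:27460001-27460280, 6.4 kb upstream, held 0, 6.67 and 19.8 normalized counts in WT DMM, against 2.24, 5.72 and 2.22 in WT sham. chr15:27453981-27454200, 12.5 kb upstream, held 0, 0 and 18.7 normalized counts in WT DMM, against 2.56, 2.15 and 2.05 in WT sham. The third-listed library set the direction of this pair, and in the second region it was the only WT DMM library with a read.

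Ank had 20 of its 21 regions lower in MUT DMM against WT DMM, more than at any other member. The smallest adjusted p was at chr15:27422081-27422500, 44.2 kb upstream, with 24.6 and 21.3 normalized counts in MUT DMM, against 38.2, 48.9 and 48.7 in WT DMM. All 3 WT DMM libraries were above both MUT DMM libraries, and the means were 22.95 ± 2.29 in MUT DMM (SD, n = 2) and 45.3 ± 6.09 in WT DMM (SD, n = 3), with a recomputed log2 fold of -0.95 and, in the authors' deposited table, an adjusted p of 2.38e-07. The shallower MUT DMM library had exactly 6 reads, worth 21.3 normalized counts, here and at 6 more Ank regions. chr15:27514821-27515100 held 19.9 and 21.3 normalized counts in MUT DMM, against 0, 51.9 and 46.9 in WT DMM, chr15:27497341-27497620 held 15.4 and 21.3 normalized counts in MUT DMM, against 0, 47.4 and 39.6 in WT DMM and chr15:27546441-27546860 held 12.4 and 21.3 normalized counts in MUT DMM, against 0, 37.6 and 47.5 in WT DMM. These 3 lie inside the gene, and both MUT DMM libraries were below both deeper WT DMM libraries. chr15:27446021-27446280, 20.4 kb upstream, held 13.1 and 21.3 normalized counts in MUT DMM, against 0, 24.8 and 43.8 in WT DMM. chr15:27388581-27388860, 77.8 kb upstream, held 16.9 and 21.3 normalized counts in MUT DMM, against 19.1, 29.3 and 28.6 in WT DMM. chr15:27326541-27327020, 139.7 kb upstream, held 10.3 and 21.3 normalized counts in MUT DMM, against 38.2, 7.52 and 32.9 in WT DMM. The first of these turned direction once the third-listed WT DMM library was left out, and at the last the second-listed WT DMM library was below both MUT DMM libraries.

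Further Ank regions with more than 1 read in the shallower MUT DMM library were chr15:27361361-27361760, 105 kb upstream, with 12.4 and 17.8 normalized counts in MUT DMM, against 19.1, 26.3 and 29.2 in WT DMM, chr15:27291941-27292260, 174 kb upstream, with 3.98 and 7.11 normalized counts in MUT DMM, against 0, 15.8 and 12.2 in WT DMM, chr15:27477561-27477800, inside the gene, with 6.55 and 10.7 normalized counts in MUT DMM, against 9.56, 14.3 and 18.9 in WT DMM, and chr15:27567461-27567660, also inside, with 8.19 and 14.2 normalized counts in MUT DMM, against 9.56, 15.8 and 18.3 in WT DMM. The MUT DMM values were below both deeper WT DMM libraries at all 4, and below the near-empty one as well at the first. At 7 lower Ank regions the shallower MUT DMM library had 1 read. chr15:27464341-27464620, 2.1 kb upstream, held 1.4 and 3.55 normalized counts in MUT DMM, against 0, 6.77 and 10.96 in WT DMM. chr15:27597481-27597860 and chr15:27597881-27598160, just downstream of the gene, held 2.34 and 3.55 normalized counts in MUT DMM, against 0, 8.27 and 14 in WT DMM and 2.11 and 3.55 normalized counts in MUT DMM, against 0, 8.27 and 10.96 in WT DMM, in that order. The deeper WT DMM libraries were above both MUT DMM libraries at these 3.

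chr15:27459981-27460260, 6.4 kb upstream, held 0.70 and 3.55 normalized counts in MUT DMM, against 0, 3.76 and 11.6 in WT DMM. chr15:27389741-27389980, 76.7 kb upstream, held 0.70 and 3.55 normalized counts in MUT DMM, against 0, 5.27 and 4.87 in WT DMM. chr15:27275361-27275600, 191 kb upstream, held 0.70 and 3.55 normalized counts in MUT DMM, against 0, 2.26 and 7.91 in WT DMM. Leaving out 1 library turned the direction at all 3, and at the last the shallower MUT DMM value exceeded the second-listed WT DMM value. chr15:27486481-27486780, inside the gene, held 1.17 and 3.55 normalized counts in MUT DMM, against 0, 1.5 and 12.8 in WT DMM, and its direction turned without the third-listed WT DMM library. chr15:27308021-27308300, 158 kb upstream, held 0.47 and 0 normalized counts in MUT DMM, against 9.56, 1.5 and 4.87 in WT DMM. chr15:27507441-27507720, inside the gene, held 0 and 0 normalized counts in MUT DMM, against 9.56, 1.5 and 6.7 in WT DMM. The shallower MUT DMM library was at 0 at this last pair and the groups did not overlap, with the near-empty WT DMM value of 9.56 being 1 read. The only higher region, chr15:27466781-27467040, at the start of the gene, held 36.03 and 28.4 normalized counts in MUT DMM, against 19.1, 15.04 and 24.4 in WT DMM. The MUT DMM values were above all 3 WT DMM libraries there, with means of 32.2 ± 5.37 in MUT DMM (SD, n = 2) and 19.5 ± 4.67 in WT DMM (SD, n = 3), with a recomputed log2 fold of 0.70 and, in the authors' deposited table, an adjusted p of 0.00158.

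**Figure D3:**
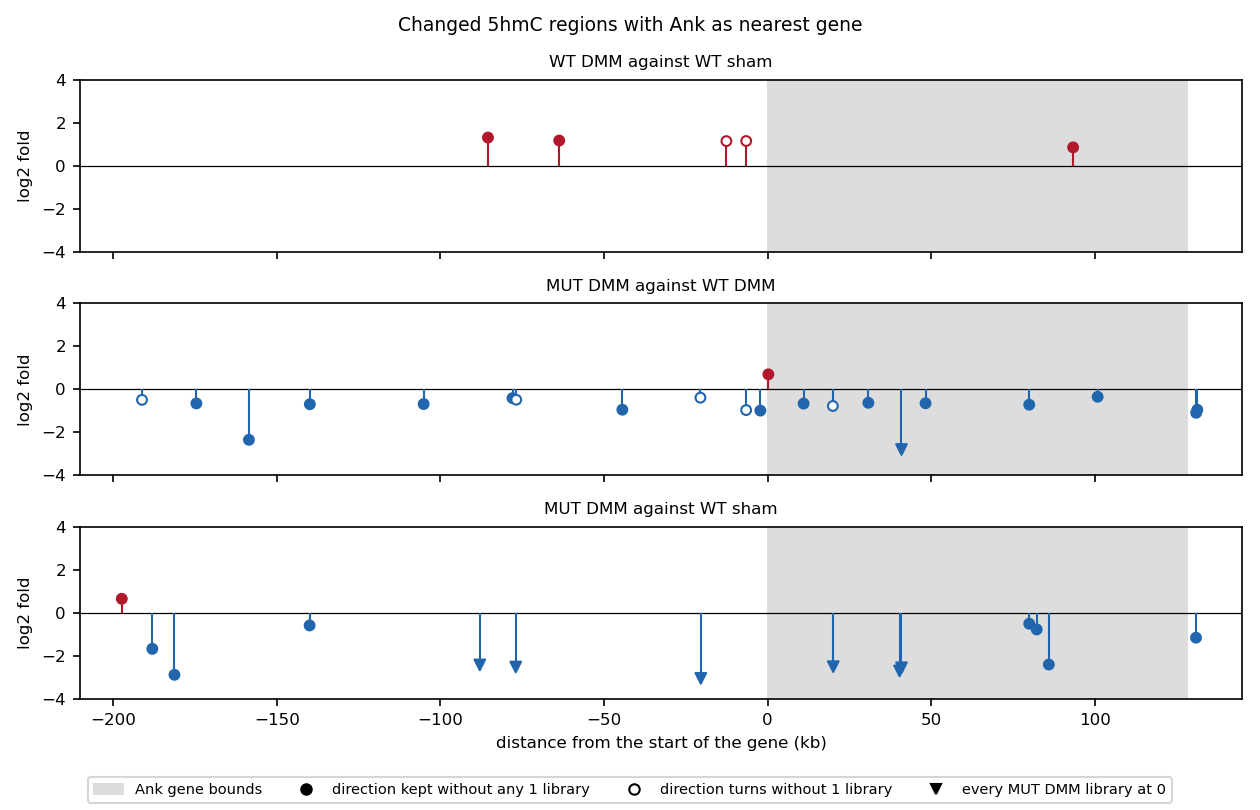
Log2 fold of each region with Ank as nearest gene against the distance of its centre from the gene's start in kb, in the 3 comparisons, with the gene in grey. Red is higher and blue is lower; open points changed direction when 1 library was left out, and triangles mark regions at which every MUT DMM library was at 0, where the fold depends on the added count. All 5 regions of WT DMM against WT sham lie above 0, and 20 of 21 in MUT DMM against WT DMM lie below.

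Against WT sham 13 of 14 Ank regions were lower in MUT DMM, and at 6 of them neither MUT DMM library had a read. chr15:27378621-27378820, 87.9 kb upstream, held 0 and 0 normalized counts in MUT DMM, against 5.83, 3.47 and 3.88 in WT sham. chr15:27389601-27389820, 76.9 kb upstream, held 0 and 0 normalized counts in MUT DMM, against 5.3, 3.47 and 5.55 in WT sham. chr15:27446141-27446400, 20.3 kb upstream, held 0 and 0 normalized counts in MUT DMM, against 3.71, 11.6 and 6.66 in WT sham. The sham libraries were above 0 in all, and limma's adjusted p was 0.0049, 0.00474 and 0.00796. chr15:27486641-27486860 held 0 and 0 normalized counts in MUT DMM, against 4.77, 4.63 and 4.72 in WT sham, chr15:27506881-27507160 held 0 and 0 normalized counts in MUT DMM, against 4.77, 5.79 and 6.1 in WT sham and chr15:27507481-27507720 held 0 and 0 normalized counts in MUT DMM, against 4.24, 5.79 and 4.72 in WT sham. These lie inside the gene, and limma's adjusted p was 0.00472 for each.

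The smallest adjusted p in this table was at chr15:27285161-27285640, 181 kb upstream, with 1.47 and 0 normalized counts in MUT DMM, against 12.2, 10.4 and 13.04 in WT sham. The groups did not overlap, the means were 0.735 ± 1.04 in MUT DMM (SD, n = 2) and 11.9 ± 1.34 in WT sham (SD, n = 3), with a recomputed log2 fold of -2.89 and, in the authors' deposited table, an adjusted p of 1.9e-05, and limma's adjusted p was 0.00643. chr15:27552521-27552740, inside the gene, held 0.74 and 0 normalized counts in MUT DMM, against 4.77, 6.95 and 7.21 in WT sham, and chr15:27597481-27597760, downstream, held 7.36 and 9.45 normalized counts in MUT DMM, against 18.03, 22 and 20.3 in WT sham. At both of these the MUT DMM libraries were below every sham library, with limma's adjusted p at 0.00702 and 0.031. chr15:27326601-27326820, 139.9 kb upstream, held 17.7 and 28.3 normalized counts in MUT DMM, against 30.8, 38.2 and 36.9 in WT sham. chr15:27278501-27278760, 188 kb upstream, held 16.2 and 9.45 normalized counts in MUT DMM, against 73.2, 43.99 and 13.04 in WT sham. No overlap was seen at the first of this pair, and at the second the third-listed sham library was below the deeper MUT DMM library. chr15:27546481-27546820 and chr15:27548821-27549040, inside the gene, held 39.03 and 56.7 normalized counts in MUT DMM, against 77.4, 94.9 and 34.4 in WT sham and 8.84 and 18.9 normalized counts in MUT DMM, against 15.9, 33.6 and 24.1 in WT sham, in that order, and the groups overlapped at both. The higher region, chr15:27269121-27269480, 197 kb upstream, held 61.1 and 122.81 normalized counts in MUT DMM, against 56.7, 64.8 and 53.8 in WT sham, and the deeper MUT DMM library was within the sham range.

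Enpp1 encodes the enzyme that makes pyrophosphate outside the cell from ATP. Its bounds are 24637914 to 24712159 on chromosome 10. All 4 of its regions in WT DMM against WT sham were higher. chr10:24623061-24623320, 14.6 kb downstream, held 0, 6.67 and 16.7 normalized counts in WT DMM, against 3.84, 3.58 and 1.2 in WT sham, with means of 7.78 ± 8.39 in WT DMM (SD, n = 3) and 2.87 ± 1.46 in WT sham (SD, n = 3), with a recomputed log2 fold of 1.18 and, in the authors' deposited table, an adjusted p of 0.000507. chr10:24628701-24628980, 8.9 kb downstream, held 0, 6.67 and 10.4 normalized counts in WT DMM, against 1.6, 2.15 and 1.37 in WT sham. chr10:24647201-24647400, inside the gene, held 0, 6.67 and 15.6 normalized counts in WT DMM, against 2.24, 4.29 and 2.73 in WT sham. The second-listed WT DMM library had 5 reads at each. chr10:24726841-24727120, 14.7 kb upstream, held 0, 6.67 and 14.6 normalized counts in WT DMM, against 2.88, 3.58 and 1.2 in WT sham. At all 4 Enpp1 regions both deeper WT DMM libraries were above every sham library and the near-empty one was at 0.

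Compared with WT DMM, MUT DMM had 4 of 5 Enpp1 regions lower. chr10:24651161-24651540, inside the gene, held 21.5 and 21.3 normalized counts in MUT DMM, against 38.2, 41.4 and 44.4 in WT DMM. The groups did not overlap. Within each group the values were close, but the near-empty WT DMM value of 38.2 is 4 reads and the shallower MUT DMM value of 21.3 is 6 reads. The means were 21.4 ± 0.141 in MUT DMM (SD, n = 2) and 41.4 ± 3.1 in WT DMM (SD, n = 3), with a recomputed log2 fold of -0.92. In the authors' deposited table the adjusted p was 4.3e-07, and limma's adjusted p was 0.729. chr10:24668941-24669320, inside the gene, held 1.4 and 3.55 normalized counts in MUT DMM, against 0, 6.02 and 17.7 in WT DMM. chr10:24623041-24623280, 14.6 kb downstream, held 0.47 and 3.55 normalized counts in MUT DMM, against 0, 3.01 and 9.74 in WT DMM. chr10:24723041-24723260, 10.9 kb upstream, held 0.47 and 3.55 normalized counts in MUT DMM, against 0, 5.27 and 4.87 in WT DMM. The shallower MUT DMM library had 1 read at these 3, and the direction of the last pair turned without 1 library. The higher region, chr10:24659861-24660160, inside the gene, held 29.5 and 31.99 normalized counts in MUT DMM, against 19.1, 18.8 and 15.8 in WT DMM. The MUT DMM values were above all 3 WT DMM libraries, and in the authors' deposited table the adjusted p was 0.0455, close to the threshold of 0.05. Against WT sham the only Enpp1 region was chr10:24695141-24695400, inside the gene, which was lower, with 8.84 and 9.45 normalized counts in MUT DMM, against 23.9, 18.5 and 20.8 in WT sham. Its means were 9.15 ± 0.431 in MUT DMM (SD, n = 2) and 21.1 ± 2.68 in WT sham (SD, n = 3), with a recomputed log2 fold of -1.12 and, in the authors' deposited table, an adjusted p of 0.00215, and limma's adjusted p was 0.0334.

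Phex, on the X chromosome, encodes a membrane peptidase that cuts mineral-binding peptides, and its loss causes poorly mineralised bone in mice. Its bounds are 157162075 to 157415286, and all of its regions lie inside the gene. In WT DMM, chrX:157283001-157283280 was lower than in WT sham, with 47.03, 32.02 and 41.7 normalized counts in WT DMM, against 76.6, 52.9 and 109.7 in WT sham. This was the only member region in this table without overlap between all 6 libraries, against 2.73% of all its regions. Its means were 40.2 ± 7.6 in WT DMM (SD, n = 3) and 79.7 ± 28.5 in WT sham (SD, n = 3), with a recomputed log2 fold of -0.97. In the authors' deposited table the adjusted p was 0.00399. The near-empty library's 47.03 is 3 reads. When values were scaled by each library's total reads in the listed regions, the direction turned, so none is drawn from this region. chrX:157245821-157246060 was higher, with 0, 16.01 and 14.6 normalized counts in WT DMM, against 5.13, 6.44 and 2.91 in WT sham. Both deeper WT DMM libraries were above sham. Over an overlapping stretch, chrX:157245681-157246060, MUT DMM was lower than WT DMM, with 5.15 and 7.11 normalized counts in MUT DMM, against 0, 19.6 and 17.1 in WT DMM. Both MUT DMM libraries were below both deeper WT DMM libraries.

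Against WT sham, chrX:157283041-157283280 was lower in MUT DMM, with 76.6 and 56.7 normalized counts in MUT DMM, against 121, 84.5 and 176 in WT sham. It lies inside the region that was lower in WT DMM by the deposited values, where the direction of WT DMM turned on scaling by reads. The means were 66.6 ± 14.1 in MUT DMM (SD, n = 2) and 127 ± 45.96 in WT sham (SD, n = 3), with a recomputed log2 fold of -0.92. In the authors' deposited table the adjusted p was 0.00214, and limma's adjusted p was 0.132. chrX:157329781-157330060 held 0 and 0 normalized counts in MUT DMM, against 4.77, 6.95 and 4.99 in WT sham, with limma's adjusted p at 0.00472.

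Spp1 and Ibsp stand near each other on chromosome 5 and encode secreted proteins of mineralised matrix. Spp1 (104435111 to 104441053) encodes osteopontin, which binds crystals and slows their growth. Both of its regions in WT DMM against WT sham were higher and upstream. chr5:104423921-104424200, 10.9 kb upstream, held 0, 5.34 and 11.5 normalized counts in WT DMM, against 1.92, 2.86 and 1.37 in WT sham. chr5:104413061-104413340, 21.8 kb upstream, held 0, 1.33 and 20.8 normalized counts in WT DMM, against 1.6, 4.29 and 1.37 in WT sham. Both deeper WT DMM libraries were above sham at the first; at the second the log2 fold was -1.04, below 0, without the third-listed library. Next to the gene, chr5:104434841-104435060 was lower in MUT DMM than in WT DMM, with 2.81 and 7.11 normalized counts in MUT DMM, against 0, 13.5 and 9.74 in WT DMM. It covers 200 bases of the Spp1 stretch printed above, both CCGG sites included. Both MUT DMM libraries were below both deeper WT DMM libraries, the means were 4.96 ± 3.04 in MUT DMM (SD, n = 2) and 7.76 ± 6.98 in WT DMM (SD, n = 3), with a recomputed log2 fold of -0.56 and, in the authors' deposited table, an adjusted p of 0.000408, and the direction turned without the second-listed WT DMM library.

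chr5:104410621-104410860, 24.3 kb upstream, was also lower, with 0.70 and 3.55 normalized counts in MUT DMM, against 0, 4.51 and 9.74 in WT DMM, and had the smallest adjusted p of the Spp1 regions. chr5:104387041-104387300, 47.8 kb upstream, was higher, with 24.1 and 28.4 normalized counts in MUT DMM, against 0, 15.04 and 10.96 in WT DMM. No overlap was seen at this higher region, and the means were 26.3 ± 3.06 in MUT DMM (SD, n = 2) and 8.67 ± 7.78 in WT DMM (SD, n = 3), with a recomputed log2 fold of 1.496 and, in the authors' deposited table, an adjusted p of 0.0057. Against WT sham, chr5:104436761-104437020, inside the gene, was higher, with 2.95 and 9.45 normalized counts in MUT DMM, against 1.06, 2.32 and 0 in WT sham. The shallower MUT DMM value is 1 read, and limma's adjusted p was 0.0911.

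Ibsp (104299287 to 104311472) encodes bone sialoprotein, which helps crystals to form. It had 1 region in each comparison with WT sham and none in MUT DMM against WT DMM. chr5:104296921-104297240, 2.0 kb upstream, was higher in WT DMM, with 0, 5.34 and 20.8 normalized counts in WT DMM, against 2.24, 5.72 and 2.56 in WT sham. The second-listed WT DMM library was within the sham range, and without the third-listed library the log2 fold was -0.30. chr5:104310441-104310720, inside the gene, was lower in MUT DMM, with 2.21 and 0 normalized counts in MUT DMM, against 48.8, 3.47 and 4.72 in WT sham. The first-listed sham library, of 92 reads, stood far above the others, and limma's adjusted p was 0.126.

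**Figure D4:**
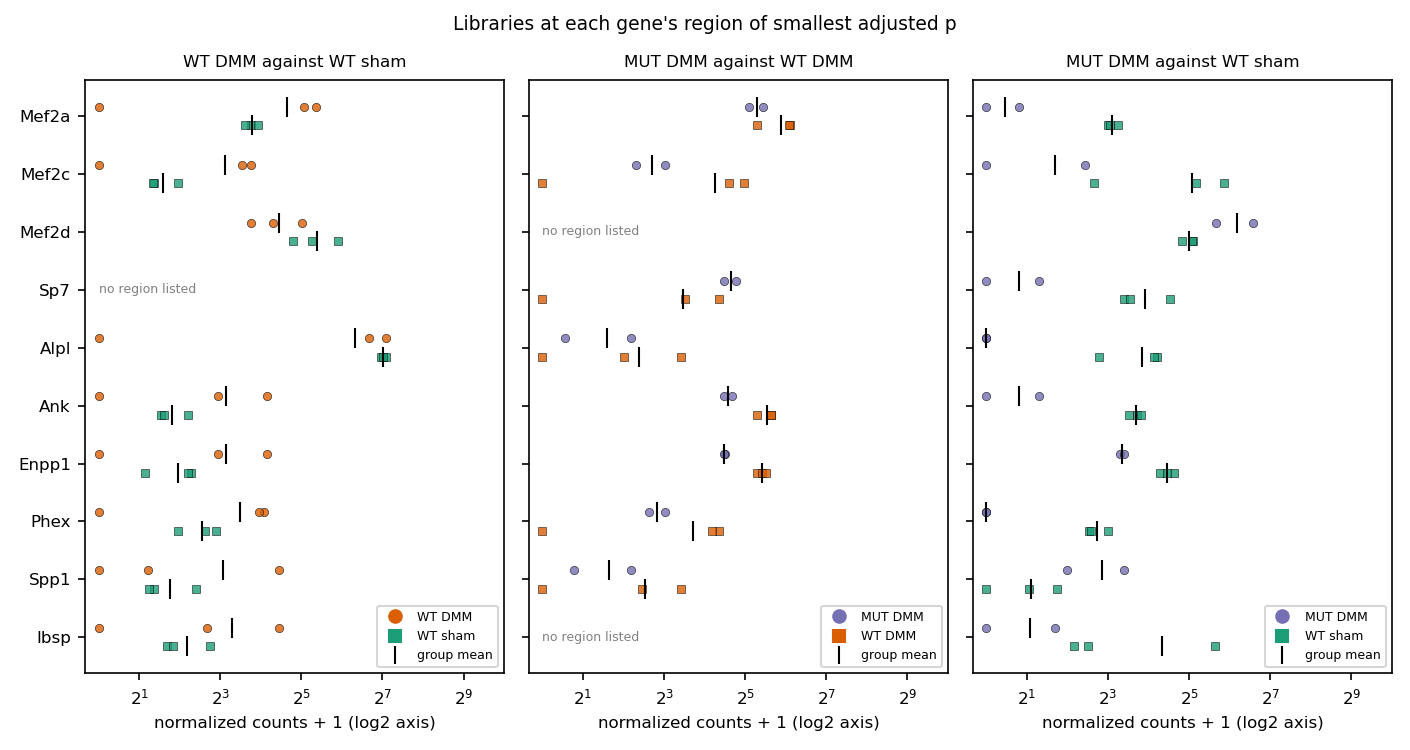
Normalized counts plus 1, on a log2 axis, of every library at the region of smallest adjusted p of each gene in each comparison. Circles are the first-named group and squares the second, vertical bars are group means, and a pair of overlying points marks libraries of near-equal value. In WT DMM against WT sham the near-empty WT DMM library lies at 0 for all genes shown but Mef2d, while in MUT DMM against WT sham the MUT DMM libraries of Mef2a, Mef2c, Sp7, Alpl, Ank, Enpp1, Phex and Ibsp lie below the lowest sham library.

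The next counts take the member regions of WT DMM against WT sham together. The near-empty WT DMM library had no read in 36 of 37 higher regions, and the third-listed one was above every other library in 35. With all libraries, the groups were separated at 1 of 41 member regions; without the near-empty library they were separated at 32, 20 of 25 at the transcription factors and 12 of 16 at the mineralisation genes, against 81.7% of all regions. limma called none of the member regions with all libraries, nor any region of the table, with 335 regions and no member under an unadjusted p of 0.05. Without the near-empty library, and with limma's adjusted p under 0.05, it called 24 member regions higher and 1 lower, against 73.3% and 1.01% of all regions. Leaving out the third-listed library turned the direction of 16 member regions, 12 of 25 at the transcription factors and 4 of 16 at the mineralisation genes, against 28.7% of all regions. No member region had every WT DMM library at 0, against 0.0323% of all regions.

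Between MUT DMM and WT DMM the groups were separated at 13 of 58 member regions, against 41.9% of all regions, and without the near-empty library at 45, against 77.6%. limma called no member and no region there either; 2 members, chr13:82994961-82995340 at Mef2c and chr15:27507441-27507720 at Ank, and 4938 of all regions had an unadjusted limma p under 0.05. Among the 49 lower member regions the shallower MUT DMM library had no read in 6 and 1 read in 22, and both MUT DMM libraries were at 0 in 1, against 0.823% of all regions. The direction turned without some library at 18 of 58 member regions, at 12 without the third-listed WT DMM library, against 18.8% of all regions, and at 8 without the deeper MUT DMM library, against 6.7%.

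Between MUT DMM and WT sham the groups were separated at 43 of 52 member regions, against 82.0% of all regions. limma, with an adjusted p under 0.05, called 26 member regions lower, 9 at the transcription factors and 17 at the mineralisation genes, against 39.0% of all regions, and none higher, against 6.38%. The 26 were 9 at Ank, 6 at Alpl, 5 at Mef2c, 2 at Mef2a and 1 each at Mef2d, Sp7, Enpp1 and Phex. Leaving out the first-listed, second-listed or third-listed sham library left 21, 18 and 19 calls, in that order, with 3, 2 and 3 at Alpl and none at Enpp1. The Enpp1 call was also lost with an intensity trend in limma. The Mef2d call was lost without the second-listed and without the third-listed sham library. In 12 of the 52 neither MUT DMM library had a read, against 21.1% of all regions, and the shallower one was at 0 in 26 of the 38 lower ones. The direction of no member region turned without a single library. limma saw only regions that the authors had already selected for a difference, so its calls are no separate check of them.

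Several stretches were listed in more than one table, and these comparisons share libraries, so the values are given with no test. How often such pairs over all regions have these directions was not computed, so the counts are not read as a trait of these genes. The first and second comparisons, which have the WT DMM libraries in common, had 8 overlapping pairs. In 7 of them the stretch was higher in WT DMM than in sham and lower in MUT DMM than in WT DMM: 4 at Mef2c and 1 each at Ank, Enpp1 and Phex. Most of these rested on the third-listed WT DMM library, which both comparisons share. Without it the direction turned in either or both comparisons at Ank, at Enpp1 and at Mef2c 83076981, 83294701 and 83421981. It held at Phex and at Mef2c 83180741, where the regions shared 35.3% of the shorter one. The eighth, 317 kb upstream at Mef2c, had the opposite directions. The 2 comparisons of MUT DMM, which share its libraries, had 12 pairs, all of the same direction: 7 lower at Ank, 3 lower and 1 higher at Mef2c, and 1 higher at Mef2a. Against WT DMM, the direction turned without 1 library at Ank 27389741, 27446021 and 27486481 and at Mef2c 83261181.

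The 2 comparisons with the same sham libraries had 8 pairs. By their means, both DMM groups were higher than sham at chr7:67274161-67274540 in Mef2a and at chr13:83231381-83231740 and chr13:83624641-83624900 around Mef2c. Both were lower at chrX:157283001-157283280 in Phex by the deposited values, but there the direction of WT DMM turned on scaling by reads. The near-empty WT DMM library had no read at the higher stretches. At those of Mef2c the regions shared 40.0% and 45.5% of the shorter one. There the deeper MUT DMM library was not above every sham library, and the shallower one had few reads. At Mef2c, WT DMM was higher and MUT DMM lower than sham in 3 pairs, starting at 82847301, 83180741 and 83232081, and the reverse held in 1, starting at 83186961. At the stretch with identical bounds in both comparisons of MUT DMM, chr13:83180961-83181340, the reads were 17 and 2 in MUT DMM, against 0, 31 and 50 in WT DMM and 20, 48 and 285 in WT sham. The first-listed sham library, which was deeper than the second-listed one, thus had fewer reads there than it.

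Other genes of the programme were taken from 2 lists, 21 regulators of hypertrophy and osteoblast fate and 25 genes of mineralisation and hypertrophic matrix. In WT DMM against WT sham, 10 of the 21 regulators had a higher region and 6 a lower one, and 88.1% of their regions were higher. Zfp521 had the most regions of this list, 16 higher and none lower. Runx2, the master factor of bone formation, had 9 higher and 1 lower regions. Hdac4 and Hdac9, class II deacetylases that bind MEF2 and hold it back, had 7 higher each and none lower. Of the other deacetylases in the list, Hdac7 had 1 lower region and none higher, and Hdac5 had no region. Of the 25 matrix genes 13 had a higher region and 4 a lower one, with 88.2% of regions higher; Enpp3, a relative of Enpp1, and Mepe, a mineral-binding matrix protein, had 4 higher each.

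Between MUT DMM and WT DMM, 12 regulators had a higher region and 15 a lower one, with 29.0% of regions higher, and 15 and 16 matrix genes, with 34.9% higher. Hdac4 had 6 lower regions and Runx2 5, with none higher at either, while Hdac5 had 3 higher regions and Sox9 2, with none lower at either. Enpp3 had 7 lower and none higher. Vdr, the vitamin D receptor, had 2 higher and 7 lower. Between MUT DMM and WT sham, 10 regulators had a higher region and 14 a lower one, with 24.0% of regions higher, and 11 and 16 matrix genes, with 26.9% higher. Zbtb16, a zinc finger factor of the osteogenic programme, had 17 lower regions and none higher, Hdac4 had 1 higher and 7 lower, and Runx2 had 4 higher and 9 lower. Col10a1, which encodes the collagen that defines hypertrophic cartilage, had no listed region in any table, and Mmp13, a collagenase of the same cells, had 1 higher region in each of the first 2 comparisons. The shares of all regions called higher, 93.2%, 34.2% and 43.2%, are those to read these lists against.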

How the data were processed

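5hmC was profiled at CCGG sites after MspI digestion, glucosylation, a repeated digest and 15 cycles of PCR, per the labels' protocols. The submitters' processing notes name the mouse build mm10 and, without their roles, HISAT2 2.1.0, bedtools, SAMtools, Trim Galore 0.5.0 and bcl2fastq 2.20.0; the sources used here do not give the program that called regions. Each of the 3 deposited tables covers 1 comparison and lists regions built from windows of 200 bases. Per the file headers, each entry holds the normalized count of every library, joined in a single cell, the mean signal per group, and the authors' p-value and adjusted p-value. Regions without a difference are not listed, so no unchanged region can be named.

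Each library's values were whole multiples of 1 step, within 0.02 normalized counts, and a step was read as 1 read. PCR reads without molecular identifiers are not independent, so limits given for a count of 0 cover counting error only. A pair of MUT DMM entries identical in every region was counted as 1 library. The design text calls replicates biological but does not name separate animals. A limma p-value therefore rests on how far the libraries of a group differ, and that difference may be technical. The authors' p-values were deposited with both identical MUT DMM entries listed. Whether their test counted that library more than once is not known, nor is the spread that it used. No count model was run, since the deposited values are normalized, joined in cells and listed only for regions past the authors' window p-value. Folds were recomputed from the group means after adding 1. limma 3.58.1 in R 4.3.3 was run on log2(value + 1) over all regions of a table, without trend, with Benjamini-Hochberg adjustment and a threshold of 0.05, and was tested on simulated data.

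Regions were taken by the authors' nearest gene, and distances were measured to the bounds of RefSeq genes (GRCm38.p6), which give no exons, so exon, intron and UTR were not told apart. The members and the 2 lists of other genes were chosen with earlier results of these data known. Every member was described. Means with folds and p-values were given for some regions only, chosen after their values were seen. These include some, but not all, of the regions of smallest adjusted p of a member in a comparison. Most regions that touch a promoter stretch were given without means and folds. Not analysed here are MUT sham and the control without glucosylation.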

Additional observations from a re-analysis of the deposited data

How the results depend on the processing

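Counts of member regions kept within 1.5 times of the reported value under an adjusted p under 0.01, the adjusted p of the best window and a minimum of 10 reads. When regions were taken by overlap with RefSeq gene bounds in place of the nearest gene, the counts were smaller. WT DMM against WT sham then had 15 regions, 9 higher and 1 lower at the transcription factors and 4 higher and 1 lower at the mineralisation genes. MUT DMM against WT DMM had 23, with 2 higher and 5 lower at the transcription factors and 13 lower at the mineralisation genes. MUT DMM against WT sham had 27, with 4 higher and 5 lower at the transcription factors and 16 lower at the mineralisation genes. This follows from the rule itself, which drops the regions outside the gene.

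Leaving out 1 library at a time in WT DMM against WT sham gave 11 to 23 higher and 2 to 14 lower regions at the transcription factors and 2 to 6 lower at the mineralisation genes, with the third-listed WT DMM library behind each extreme. Regions without overlap ranged from 1 to 32, and limma's calls from 0 to 25, 0 to 24 higher and 0 to 1 lower, the highest without the near-empty library. In MUT DMM against WT DMM, higher regions ranged from 4 to 11 at the transcription factors and 4 to 10 at the mineralisation genes, highest without the third-listed WT DMM library, and were 9 and 8 without the deeper MUT DMM library; regions without overlap ranged from 13 to 45. In MUT DMM against WT sham, limma's higher calls ranged from 0 to 10, highest without the deeper MUT DMM library, which leaves MUT DMM with a lone library assumed to vary like the others, and an intensity trend gave 1. limma's lower calls there, 26 with all libraries, ranged from 18 without the second-listed sham library to 27 without the deeper MUT DMM library, and from 24 to 26 under the settings that keep every library.

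Among the regions of smallest adjusted p of a gene in a table, the log2 fold of 3 changed sign when the third-listed WT DMM library was left out. Over all single libraries left out it ranged from -1.04 to 1.82 at Spp1 104413061, from -0.30 to 1.64 at Ibsp 104296921 and from -1.84 to 0.27 at Alpl 137811401. Scaling by each library's total reads in the listed regions moved the median log2 fold of all regions by -0.73, 0.17 and -0.08 in the 3 tables, in the order used above. The higher member regions then numbered 38, 8 and 14, against 37, 9 and 14. The fold at Mef2d 88142401 became 0.59. In WT DMM against WT sham 1 mineralisation region was then lower, since the region at Phex 157283001 turned to higher. Requiring 50% of the shorter region to be shared left 22 of 28 overlapping pairs between tables. Depth limits the near-empty WT DMM library, in which a 0 allows up to 47.03 and 28.7 normalized counts in its 2 tables, and the shallower MUT DMM library, in which it allows 10.7 and 28.3. No paired analysis was possible because the joined cells carry no replicate number.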
